A study of Drosophila melanogaster with 6 samples.

Results

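The Osiris genes are a family of insect genes, most of which lie side by side in a single cluster on chromosome arm 3R of Drosophila melanogaster. The 10 genes described here are Osi2, Osi3, Osi6, Osi7, Osi8, Osi9, Osi10, Osi14, Osi15 and Osi18. They were chosen by symbol from the probe annotation of the array, and each was represented by its probe set matching 1 gene with the highest mean over the 6 arrays. All 10 were found, of 11982 genes with such a probe set, and each had 1 probe set only. Osi10 was found through its synonym: its probe set is annotated as Osi10b, and the RefSeq gene table now splits the older gene into Osi10a and Osi10b. Whether its probes also match Osi10a was not tested, so its value may stand for either gene or both. The question was whether other Osiris genes are expressed in the adult proboscis and whether any of them moves with Osi8.

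The RNA came from proboscises, the feeding and taste organ of the fly, dissected from males 8 to 18 days after eclosion that carried the mutant allele poxn70 either on both chromosomes (homozygous) or on one (heterozygous). There were 3 biological replicates of each genotype, each made from 164 to 280 pooled proboscises and hybridized to 1 array, so 6 arrays in all. The heterozygotes carried the allele too, and no wild-type flies were part of the comparison. All values below are log2 values made with GCRMA, which corrects background probe by probe and returns 1 value per probe set. Differences are homozygous minus heterozygous. A value under 3 was treated as background, and 33.8% of all genes lay under that limit on all 6 arrays.

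Osiris genes encode small proteins with a signal peptide and a conserved domain of the family, and several of the proteins have been located to endosomes and the apical membrane. The cluster coincides with the triplo-lethal locus, a region whose altered copy number kills the fly. The family is known mainly from epithelia that build cuticle in the embryo and the pupa: Osi9 and Osi15, with Osi19, act in the maturation of tracheal tubes, and Osi23 is required for the pores in the cuticle of olfactory hairs. Pox neuro (Poxn) is the transcription factor that makes a bristle chemosensory rather than purely mechanosensory.

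Osi8 was the only gene of the 10 with clear signal, and it had that signal in heterozygotes only. Its log2 values were 9.48, 9.80 and 9.00 in heterozygous replicates 1, 2 and 3, and 2.24, 2.46 and 2.34 in the homozygous ones. All 3 heterozygous arrays were far above the background limit, all 3 homozygous arrays lay under it, and the groups did not overlap. The mean was 9.43 ± 0.41 (SD, n = 3) in heterozygotes and 2.35 ± 0.11 (SD, n = 3) in homozygotes. Since the homozygous values are only a bound, the decrease is given as at least 86.0-fold, the heterozygous mean against the limit of 3. The fitted difference was -7.08 with a 95% confidence interval of -7.79 to -6.38 and an adjusted p of 0.00499 (limma, Benjamini-Hochberg over all probe sets). This fit took the homozygous values as read under the limit, so its interval does not bound the true decrease. Osi8 was lower in 3 of 3 homozygous arrays.

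**Figure D1:**
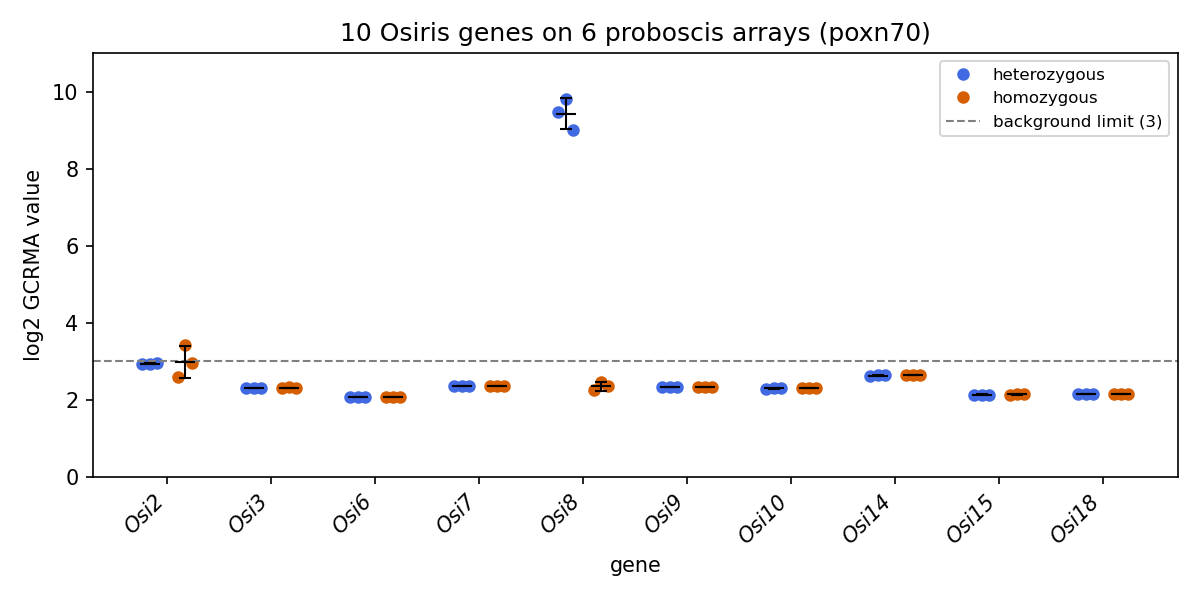
Log2 GCRMA value (y axis) of each of the 10 Osiris genes (x axis) on the 3 heterozygous (blue) and 3 homozygous (orange) arrays. Points are arrays, black bars are the mean and SD (n = 3), and the dashed line is the background limit of 3. Only Osi8 stands far above the line, at 9.00 to 9.80 in heterozygotes, and 1 homozygous value of Osi2 lies just over it at 3.42.

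The call on Osi8 depended on how the replicate numbers were treated. Same-numbered arrays deviated together from their group means, with r of 0.142 to 0.372. The labels state no such pairing, and other pairings of the arrays were not compared. With the replicate number as a block, the difference was again -7.08 and the adjusted p was 0.267 (limma). That fit called 0 probe sets of the whole array (limma, smallest adjusted p 0.131), so the calls on other genes given below also come from the fit without the block, and the unadjusted p of Osi8 in it was 0.000104. With both arrays numbered 1 left out, which was tried only once the values were known, the difference was -7.00 and the adjusted p was 0.0599. In a bulk sample such as this, fewer cells that express Osi8 and less Osi8 RNA per cell cannot be told apart.

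None of the other 9 genes was called in either direction. Over all probe sets 0.314% were called lower in homozygotes and 0.0586% higher. Of the 10 Osiris genes 1, Osi8, was called lower and 0 were called higher, and none of the other 9 passed even an unadjusted p of 0.05 (limma, adjusted p from 0.611 to 0.902). The median difference over the 10 genes was 0.0050, beside 0.0045 over all probe sets. Groups that did not overlap were seen in 3 of the 10, with Osi8 lower and Osi7 and Osi14 higher, while 4.48% of all probe sets were lower and 18.5% higher in that way. The separation of Osi7, at 0.0055, and of Osi14, at 0.0072, arose entirely within background, where GCRMA compresses values into a narrow band.

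Osi7 and Osi9 are the nearest Osiris neighbours of Osi8 on the chromosome, one on each side. Osi7 stood at 2.35, 2.36 and 2.36 in heterozygotes and at 2.36, 2.36 and 2.36 in homozygotes. Osi9, one of the genes of tracheal tube maturation, stood at 2.33, 2.32 and 2.32 in heterozygotes and at 2.32, 2.32 and 2.32 in homozygotes. Both genes were thus under the limit on every array, beside a neighbour that changed by at least 86.0-fold.

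Osi2 was the 1 gene besides Osi8 with a value over the limit. It was at 2.91, 2.94 and 2.95 in heterozygotes and at 2.58, 3.42 and 2.94 in homozygotes. The value over 3 came from homozygous replicate 2 alone, the lowest value came from homozygous replicate 1, and the heterozygous values fell between them. Its difference was 0.05 with a 95% confidence interval of -0.49 to 0.58, and limma gave an adjusted p of 0.902. Whether Osi2 is expressed at a low level here could not be settled from these values.

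The remaining genes were at background throughout. Osi15, which acts with Osi9 in the trachea, ranged from 2.12 to 2.13 over the 6 arrays. Osi3 ranged from 2.29 to 2.31, Osi6 from 2.06 to 2.07 and Osi10 from 2.28 to 2.30. Osi14 ranged from 2.62 to 2.63 and Osi18 from 2.14 to 2.15. Together with Osi7 and Osi9 these 8 genes differed between genotypes by -0.0017 to 0.0084, and the bounds of their 95% confidence intervals lay between -0.013 and 0.027. Such intervals describe the band of background values and say little about transcripts too rare for the array. Whether a probe set at background reflects an absent transcript or a probe set that reads its transcript poorly was not tested.

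The change of Osi8 was also set against that of each of the other 9 genes over arrays. Each of the 9 exact two-sided permutation tests gave p = 0.1, also when adjusted over the 9, which is the smallest value that 3 arrays against 3 allow, so no test of this kind can pass 0.05 here. As 8 of the 9 genes were under the limit on all 6 arrays and have no measured change, these differences carry little beyond the change of Osi8 itself.

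The other 14 Osiris genes on the array were, with 1 exception, also at background. Of these, 13 lay under the limit on all 6 arrays, between 1.90 and 2.31, and differed between genotypes by -0.00010 to 0.022. They included Osi19, the third gene of the tracheal group, at 2.30 to 2.31, and Osi23, the gene of olfactory hair pores, at 2.29 to 2.31. Osi21, also known as diehard4 from a screen on photoreceptor degeneration, was at 2.05 on all 6 arrays. In the same range were Osi1, Osi4, Osi5, Osi11, Osi12, Osi13, Osi16, Osi17, Osi20 and Osi22, and Osi12 reached 2.19 in homozygous replicate 1 against 2.13 to 2.14 elsewhere. None of the 14 was called, and 0 passed an unadjusted p of 0.05 (limma). Over all 24 Osiris genes 21 were under the limit on every array (87.5%), beside the 33.8% of all genes.

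Osi24 was that exception, with signal in both genotypes. It was at 7.72, 7.37 and 7.23 in heterozygotes and at 7.07, 8.87 and 8.54 in homozygotes. Homozygous replicate 1 was the lowest of the 6 arrays and the other homozygous arrays were the highest, so the groups overlapped. The means were 7.44 ± 0.25 in heterozygotes and 8.16 ± 0.95 in homozygotes (SD, n = 3), a difference of 0.72 with a 95% confidence interval of -0.57 to 2.01 and an adjusted p of 0.611 (limma). The difference moved with single arrays: it was 1.26 without homozygous replicate 1 (adjusted p = 0.143), 0.37 without homozygous replicate 2 (adjusted p = 0.786) and 0.53 without homozygous replicate 3 (adjusted p = 0.821). The change of Osi8 minus that of Osi24, a gene measured on all arrays, was -7.80 with the homozygous values of Osi8 as read under the limit (exact permutation test, two-sided, p = 0.1, the smallest possible).

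**Figure D2:**
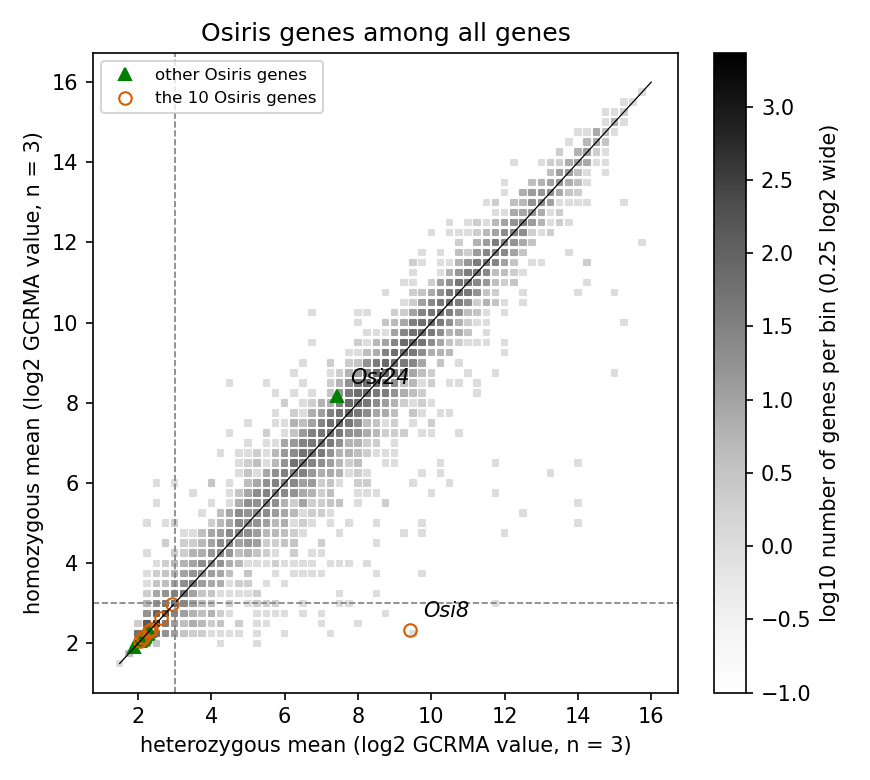
Mean log2 GCRMA value of each gene in homozygotes (y axis) against heterozygotes (x axis), n = 3 arrays each. Grey squares are bins of all genes shaded by the log10 number of genes, circles are the 10 Osiris genes, triangles the other 14, the line marks equal means and dashed lines mark the background limit of 3. Osi8 lies at 9.43 and 2.35, far under the line, Osi24 lies at 7.44 and 8.16, and the rest crowd at or under the limit in both genotypes.

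Along the cluster, clear signal came from Osi8 and Osi24 alone. Both neighbours of Osi8 were at background on all arrays, while those of Osi24, NPFR and Osi2, lay near the limit and passed it on 2 and 1 of the homozygous arrays. RefSeq places 29 genes from Osi1 to Osi20 on arm 3R, of which 22 are Osiris genes, and 21 of these have a probe set here. Osi8 is the 9th Osiris gene in that order, and Osi24, the second, is separated from it by 6 Osiris genes. Of the 7 genes between Osi1 and Osi20 that are not Osiris genes 4 had a probe set, and none was called. CG15597, CG15594 and CG31560 were under the limit on all 6 arrays. NPFR, the receptor of neuropeptide F, was at 2.71, 2.72 and 2.63 in heterozygotes and at 3.81, 2.80 and 3.08 in homozygotes, higher by 0.54 without overlap (limma adjusted p = 0.611). No coordinates are given, because the deposited values name no genome build.

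**Figure D3:**
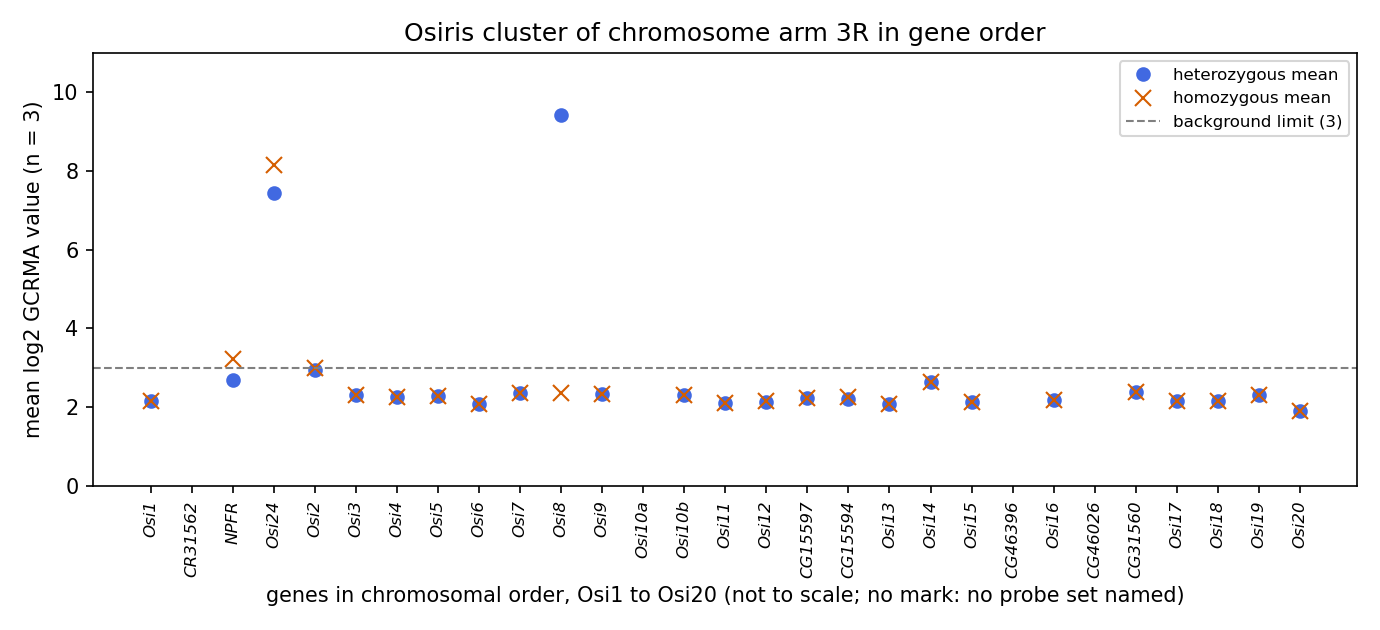
Mean log2 GCRMA value (y axis, n = 3) of heterozygous (circles) and homozygous (crosses) arrays for the genes from Osi1 to Osi20 in chromosomal order (x axis, not to scale). Genes without a mark have no probe set named here, and the dashed line is the background limit of 3. Osi8 and Osi24 rise above the line as separate points, NPFR reaches 3.23 in homozygotes, and the genes on either side of Osi8 are at background.

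Outside the cluster, the nearest 5 genes with a probe set before Osi1 were all at background, and of the nearest 5 after Osi20, 3 were clearly expressed. These were CG17919 at 11.96 ± 0.30 and 11.95 ± 0.70, SmD2, a core protein of the splicing machinery, at 10.71 ± 0.16 and 10.91 ± 0.51, and CG18048 at 6.15 ± 0.03 and 5.91 ± 0.52 in heterozygotes and homozygotes (SD, n = 3). None of the 10 flanking genes was called, with differences from -0.24 for CG18048 to 0.20 for SmD2.

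The pattern of Osi8, at or above the limit on all heterozygous arrays and under it on all homozygous arrays, was shared by 34 of the 11982 genes (0.284%), and the reverse pattern by 7. This count was chosen after the values were seen. That none of the other 33 is an Osiris gene follows from the Osiris values given above.

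The genes whose profile over the 6 arrays was most like that of Osi8 were Sgsh, CG15036, CG14313, CG42326 and spz5, with Pearson r from 0.995 to 0.996. They were the top 5 of 3854 genes that varied by at least 1 on the log2 scale and reached the limit on at least 1 array. With 2 groups far apart, r is set mostly by the gap between genotypes, so it is given as a description only. Sgsh, a lysosomal sulfatase, was at 8.73, 8.82 and 8.14 in heterozygotes and at 4.60, 4.38 and 4.80 in homozygotes. Its heterozygous arrays kept the same order as those of Osi8, with replicate 2 highest and replicate 3 lowest, as did those of CG42326. For CG14313, heterozygous replicates 1 and 2 were level at 6.64 and replicate 3 was lowest at 6.35. The homozygous order differed: replicate 2 was lowest for Sgsh, at 4.38, and highest for Osi8, at 2.46, a value under the limit. All 5 genes were picked by likeness to these same values, so a shared order adds nothing further. CG15036 was at 7.17, 6.88 and 6.67 against 2.84, 2.45 and 2.59, and like Osi8 it was under the limit on all homozygous arrays, a decrease of at least 15.0-fold. The gene spz5, whose product is a neurotrophin-like ligand of the Spätzle family, was at 10.02, 9.59 and 9.78 against 4.74, 4.65 and 4.85. CG14313 fell from a mean of 6.55 to 3.72 and CG42326 from 7.57 to 3.96. Of these 5 genes, Sgsh and CG14313 lie on the same arm as Osi8, CG15036 on X, CG42326 on 2R and spz5 on 3L, and none is an Osiris gene.

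**Figure D4:**
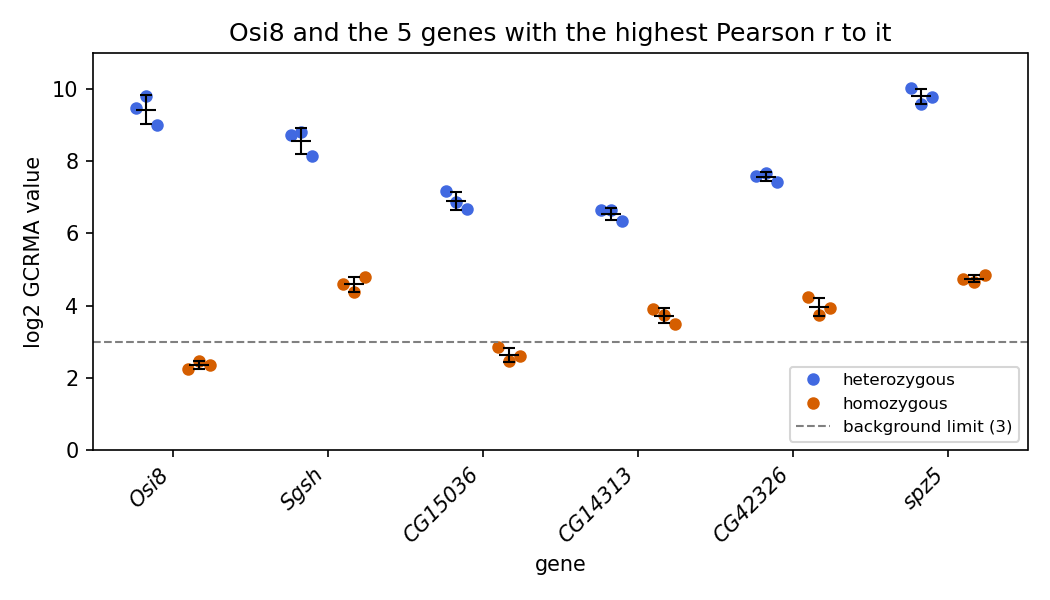
Log2 GCRMA value (y axis) of Osi8 and of the 5 genes with the highest Pearson r to it over the 6 arrays (x axis), in heterozygotes (blue) and homozygotes (orange). Points are arrays, black bars are the mean and SD (n = 3), and the dashed line is the background limit of 3. In all 6 genes the groups are apart, and the homozygous values of Osi8 and CG15036 lie under the limit on all 3 arrays.

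Genes of cuticle and apical matrix, the setting in which Osiris genes are best known, included 1 call. Of 29 listed genes 25 had a probe set, and 18 reached the limit on at least 1 array (72.0%, beside 66.2% of all genes). Of the 25, 1 was called lower and 0 were called higher (limma), beside 0.314% and 0.0586% of all probe sets. The median difference was 0.03. The lower one was nompA, which ties the sensory dendrite to the cuticle, at 7.61, 8.97 and 8.26 in heterozygotes and at 4.05, 3.85 and 3.95 in homozygotes (adjusted p = 0.0324), a call that is lost under the replicate block. The next smallest p values belonged to kkv, the chitin synthase of epidermis and trachea, at 3.28 ± 0.39 and 4.31 ± 0.38 (adjusted p = 0.481), and to neo, a zona pellucida domain protein, at 8.19 ± 0.24 and 8.77 ± 0.37 (adjusted p = 0.611) in heterozygotes and homozygotes (SD, n = 3). The fourth, mey, of the same protein class, was under the limit in both. A difference that missed the threshold does not show that a gene kept its level: the 95% confidence interval for e, the ebony gene of pigment and cuticle, was -0.69 to 2.55.

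Several lists of cell markers had sums that did not overlap between genotypes, and no sum was tested. Over all probe sets, 4.48% were lower and 18.5% higher in homozygotes without overlap. Each list was summed on the linear GCRMA scale per array. Such a sum is set mostly by the brightest genes of its list, so it is no even measure of a cell type. Among the support cell markers these were Obp49a, Obp57c and Obp19b, with heterozygous means of 15.16, 14.20 and 14.11, beside 8.28 for nompA. In the tracheal list Gasp stood at 10.81 and btl at 4.41. All 8 taste neuron markers reached the limit, and their sum was 2440 to 3835 in heterozygotes and 140 to 314 in homozygotes. Of the 8, 4 were called lower, beside 0.314% of all probe sets. The 5 markers of sense organ support cells on the array summed to 58178 to 83270 in heterozygotes and 9701 to 12219 in homozygotes, with 3 called lower, although sv, a Pax factor of those cells, was at 4.97 ± 0.33 and 4.93 ± 0.51. The neuron list, with brp under the limit on all arrays, summed to 449 to 641 and 107 to 400, and the hemocyte list to 1406 to 1679 and 3053 to 3366, with 0 called in either. The 107 came from homozygous replicate 1 alone. There elav was at 6.28, against 8.40 and 8.27 in homozygous replicates 2 and 3 and 8.61 to 9.16 in heterozygotes. The 5 tracheal markers summed to 2297 to 3354 and 2374 to 2876, with 0 called, and the ranges of the genotypes overlapped. The part of any of these cell types in the decrease of Osi8 was not tested.

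As for the arrays themselves, Poxn was under the limit on all 6 arrays, at 2.36, 2.30 and 2.37 in heterozygotes and at 2.65, 2.37 and 2.37 in homozygotes, so its probe set gave no check of the genotype labels. Homozygous replicate 1 was the least like the rest of its group, with a mean correlation of 0.972 against 0.982 to 0.983 for the other homozygous arrays and 0.991 to 0.994 for the heterozygous ones. Among markers of other tissues, 7 of 8 maxillary palp markers were under the limit on all arrays. So were 2 of 3 testis markers (dj and Mst87F) and 2 of 4 fat body markers (Lsp2 and Fbp1). The remaining palp marker, Orco, was over the limit on all 6 arrays, at 6.05 ± 0.59 in heterozygotes and 4.45 ± 0.93 in homozygotes (SD, n = 3). Its groups did not overlap, but it was not called (limma adjusted p = 0.611). The remaining testis marker, Mst98Ca, ranged from 2.68 to 4.19 and passed the limit on 2 heterozygous arrays and 1 homozygous array. The fat body marker apolpp was high in both genotypes, at 14.07 ± 0.21 and 14.11 ± 0.13 (SD, n = 3), and Yp1 passed the limit on the replicate 3 array of each genotype, at 4.14 in heterozygotes and 4.33 in homozygotes. The muscle markers Tm2 (12.29 ± 0.31 and 12.67 ± 0.21) and Mlc2 (11.84 ± 0.34 and 10.88 ± 0.90) were high as well. The other muscle marker, Act88F, varied widely between replicates within each genotype. It was at 10.70, 4.82 and 9.19 in heterozygotes and at 9.01, 5.67 and 5.71 in homozygotes. The cause of this spread was not tested. The list sums in heterozygotes and homozygotes were 78 to 136 and 43 to 65 for the palp list and 18 to 29 and 17 to 23 for testis. For fat body they were 15109 to 20111 and 16566 to 19569, nearly all of it apolpp. The 3 muscle markers summed to 8427 to 10711 and 8221 to 9498. In these lists 0 genes were called.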

How the data were processed

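Each array was hybridized with biotin-labelled cRNA, amplified in 2 rounds from about 50 ng of total RNA, per the labels' protocols. Per the submitters' processing notes, the authors used GCRMA (version not stated), and the deposited values were taken as log2 from their range, 1.57 to 16.02. Of 18952 probe sets 183 controls were left out. Gene names came from the platform annotation (13647 probe sets with 1 gene, 402 with several, 4720 with none), updated by Entrez identifier from a RefSeq gene table (Release 6 assembly; 13544 matched), which also gave the gene order. Limma 3.58.1 in R 4.3.3 (lmFit, eBayes with intensity trend) fitted all 18769 probe sets, calling those with a Benjamini-Hochberg adjusted p under 0.05, after a check on simulated data. The limit of 3 is not a detection call. No scanner file was used, and the number of arrays limits the precision.

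The members and lists were chosen with earlier results of these data known. The genes named were all Osiris genes, those between Osi1 and Osi20, the 5 most like Osi8, and up to 4 cuticle genes with the smallest unadjusted p. The 5 flanking genes on each side and the genes sharing the Osi8 pattern were added after seeing the data. The cuticle list shares nompA with the support cell list and Gasp, serp and verm with the tracheal list. Same-numbered arrays deviated together from their group means (numbers 1, 2 and 3 gave r = 0.372, 0.288 and 0.142 over probe sets). The labels do not state such a pairing, so the main fit and the permutation tests ignored it, and the replicate block was run as an alternative. Alternatives covered the variance model, dim probe sets, scaling, array weights, the block, single arrays and the limit.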

Additional observations from a re-analysis of the deposited data

How the results depend on the processing

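The difference of Osi8 stayed negative in every fit run. It ended its call with the replicate block (-7.08, adjusted p = 0.267) and without both arrays numbered 1 (-7.00, adjusted p = 0.0599, chosen after seeing the data), and the number of the 10 Osiris genes called was then 0; these fits also leave fewer degrees of freedom, and the cause was not tested. The block fitted to the brighter 50% of probe sets only (adjusted p = 0.0173) and the replicate number as a random block (0.00163), both chosen after seeing the data, kept the call. Leaving out 1 array at a time gave differences of -7.30 to -6.89 with adjusted p of 0.0178 to 0.0468, and 1 gene called each time. With array weights 5 of the 10 were called, 4 of them besides Osi8: Osi3, Osi6, Osi15 and Osi18, higher by 0.0034 to 0.011 and under the limit on all arrays. That fit gave heterozygous replicate 2 a weight of 72.2 and homozygous replicate 1 a weight of 0.0759, and it called 43.7% of all probe sets, Osi24 among them (1.31, adjusted p = 0.00831). The fit of the weights stopped before it converged. Over all probe sets, 59 were called lower and 11 higher, against 0 and 0 with the block, 1689 and 6520 with array weights, 123 and 34 over the brighter 50% alone, 117 and 35 with median centring, 117 and 50 with the random block, 35 and 13 without the intensity trend, and 9 and 0 without both arrays numbered 1. Leaving out 1 array gave 6 to 54 lower and 0 to 12 higher. A background limit of 2.5 turned the bound on Osi8 into at least 121.6-fold, and a limit of 4 into at least 43.0-fold. At a limit of 2.5, 3 of the 10 genes reached it on some array (Osi14 besides Osi8 and Osi2), and at 4 only Osi8 did. Only Osi8 and Osi2 were among the brighter 50% of probe sets. The alternative of a gene's dimmer probe set had no value, since each of the 10 had 1 probe set.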
